A study of Homo sapiens with 28 samples.

Results

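The response of HepG2 cells to perfluorooctane sulfonate (PFOS) was examined by comparing 4 PFOS libraries with 4 libraries of the dimethyl sulfoxide (DMSO) vehicle, 8 of the 28 samples of the series, over 18849 genes tested. The samples were chosen by their labelled treatment alone, and all genes with sufficient counts were kept. HepG2 is an established human hepatoblastoma-derived liver line (ATCC) and was the single line used. PFOS cells received 10 µM PFOS for 24 h, DMSO cells received the vehicle at no more than 0.1% of the medium, and both had been deprived of serum for 24 h beforehand. A further 4 libraries of cells given water, the vehicle of another compound in the series, served as a second vehicle. PFOS and water libraries differ in vehicle as well as in compound, so water is not a matched control for PFOS. The labels describe 4 independent experiments, each with technical triplicates, but give no statement on whether libraries of equal number came out of a shared experiment. The p-values therefore measure the spread between samples, which may in part be technical. Unless stated, the fits pooled that spread over all 28 libraries. These included cells given cadmium chloride, the dioxin TCDD, bisphenol A or tributyltin chloride, also for 24 h.

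PFOS is a persistent fluorinated surfactant that resembles a fatty acid in shape and binds fatty acid carriers in the liver. It is known to activate the nuclear receptor PPAR alpha, which turns on genes of fatty acid oxidation, and, more weakly, the receptors CAR and PXR, which turn on drug-metabolising enzymes. Antisense genes are transcribed from the strand opposite another gene, and processed pseudogenes are copies of an mRNA that were inserted elsewhere in the genome. The read counts of both kinds of gene depend on how reads were assigned to a strand and to near-identical sequences.

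The PFOS libraries held 49.7, 47.1, 28.9 and 38.7 M counts and the DMSO libraries 31.4, 61.2, 53.9 and 66.0 M counts. Levels are given in CPM, counts scaled to library size with TMM factors, and over these 8 libraries a count of 3 equals 0.0435 to 0.102 CPM, a floor that covers counting error only. According to a note in the series text, labels of PFOS and TCDD were swapped in a later update. Under the labels now in force CYP1A1, a P450 gene that dioxins induce, averaged 7.51 ± 7.18 CPM in PFOS and 8.37 ± 6.54 CPM in DMSO (SD, n = 4 each), while the lowest TCDD library had 2841 CPM. Hepatocyte genes such as ALB and SERPINA1 were abundant in all libraries. Of 16 markers of leukocytes, endothelium and stroma, 8 passed the filter on low counts and 4 had 0 counts in all 8 libraries. Their summed level was 1130 to 2328 CPM in PFOS and 1935 to 2533 CPM in DMSO, which came mostly from LYZ, and their part in the results was not tested. In such bulk samples a lower level of a transcript per cell and fewer cells carrying it cannot be told apart.

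No gene was called higher in PFOS, and 3 genes were called lower, 0.0159% of those tested (edgeR, adjusted p under 0.05). At an unadjusted p under 0.05 there were 1043 genes (5.53%), and PFOS and DMSO did not overlap in 932 (4.94%). The 3 called genes were a pseudogene of the ribosomal protein gene RPL4 and a pair of antisense genes. The pseudogene, RPL4P5, lies on the minus strand at chr9:7477045-7478320 (GRCh38). Whether its reads can be separated from those of RPL4 depends on how the sequences differ, so a stretch of 150 bases, the length of a sequenced read, is shown from GENCODE release 29 with the differing bases in capitals. It is the first window without a gap that has the median number of differences, 4.
RPL4: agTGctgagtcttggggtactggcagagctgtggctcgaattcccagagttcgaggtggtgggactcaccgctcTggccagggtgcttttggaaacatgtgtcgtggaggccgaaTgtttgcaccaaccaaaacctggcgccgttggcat
RPL4P5: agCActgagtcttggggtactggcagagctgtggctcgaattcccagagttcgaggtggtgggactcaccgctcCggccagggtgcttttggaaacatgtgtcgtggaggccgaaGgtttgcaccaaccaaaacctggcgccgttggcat
The pseudogene and the coding sequence of RPL4 were identical at 96.3% of 1279 aligned positions. Over 978 windows of 150 bases without a gap, 0 were identical and the differences ran from 2 to 10. A read of 150 bases that fills such a window therefore carries at least 2 bases that distinguish these 2 genes. Shorter reads, reads outside the aligned coding sequence and other copies of RPL4 were not examined.

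RPL4P5 stood at 4.55, 5.79, 5.84 and 4.75 CPM in PFOS and at 9.14, 10.4, 14.3 and 10.9 CPM in DMSO. Every PFOS library lay below every DMSO library. Its log2 fold change was -1.10 ± 0.18 (SE, edgeR adjusted p = 0.0238), and the water libraries, at 6.00 to 9.85 CPM, lay between and overlapped DMSO. The parent gene RPL4, a component of the large ribosomal subunit, averaged 1487 CPM in PFOS and 1451 CPM in DMSO (log2 fold change 0.04). Reads of RPL4P5 per 1000 reads of RPL4 were 3.62, 3.91, 3.45 and 3.13 in PFOS, 6.66, 7.44, 8.95 and 7.53 in DMSO, and 4.57, 6.02, 5.52 and 5.51 in water. All 4 PFOS ratios lay below all those of DMSO and water, a description only, since RPL4P5 was chosen for its difference between PFOS and DMSO. A low ratio was not particular to PFOS. The ratio was 3.44 to 4.16 with bisphenol A, 3.32 to 6.06 with tributyltin chloride, 4.78 to 6.92 with cadmium chloride and 7.35 to 8.53 with TCDD.

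IDI2-AS1, which lies opposite IDI1, an isomerase of cholesterol synthesis, stood at 0.845, 1.01, 1.16 and 0.919 CPM in PFOS and at 3.78, 3.55, 2.36 and 2.62 CPM in DMSO. It lies on chromosome 10 (plus strand, 1022666 to 1044201), and 50.4% of its exonic bases lie over exons of IDI1. Its PFOS and DMSO libraries did not overlap (log2 fold change -1.65 ± 0.26 SE, edgeR adjusted p = 0.0231), with water at 1.49 ± 0.46 CPM (SD, n = 4). IDI1 itself averaged 213 ± 31.2 CPM in PFOS and 226 ± 9.32 CPM in DMSO (SD, n = 4 each). ENSG00000258745 lies on chromosome 14 opposite PYGL, the liver glycogen phosphorylase, with an overlap of 33.6%. It stood at 0.365, 0.147, 0.374 and 0.255 CPM in PFOS and at 0.975, 0.779, 1.04 and 1.04 CPM in DMSO. These groups did not overlap either (log2 fold change -1.76 ± 0.32 SE, edgeR adjusted p = 0.0468), while PYGL averaged 147 ± 20.5 CPM in PFOS and 145 ± 23.5 CPM in DMSO (SD, n = 4 each).

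Each of the 3 calls depended on single libraries. Without PFOS replicate 1, 2, 3 or 4 the edgeR adjusted p was 0.0819, 0.0790, 0.0488 and 0.114 for both RPL4P5 and IDI2-AS1, and without DMSO replicate 1, 2, 3 or 4 it was 0.0302, 0.0619, 0.0855 and 0.0582 for RPL4P5 and 0.0760, 0.0619, 0.0205 and 0.0371 for IDI2-AS1. For ENSG00000258745 it was 0.0582 to 0.284 whichever of the 8 libraries was left out, while the log2 fold changes of the 3 genes stayed between -1.94 and -0.95. A fit to the 8 PFOS and DMSO libraries alone called 3 other genes and lost all 3 of these calls (edgeR adjusted p = 0.0537 for RPL4P5 and IDI2-AS1, and 0.0630 for ENSG00000258745).

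**Figure D1:**
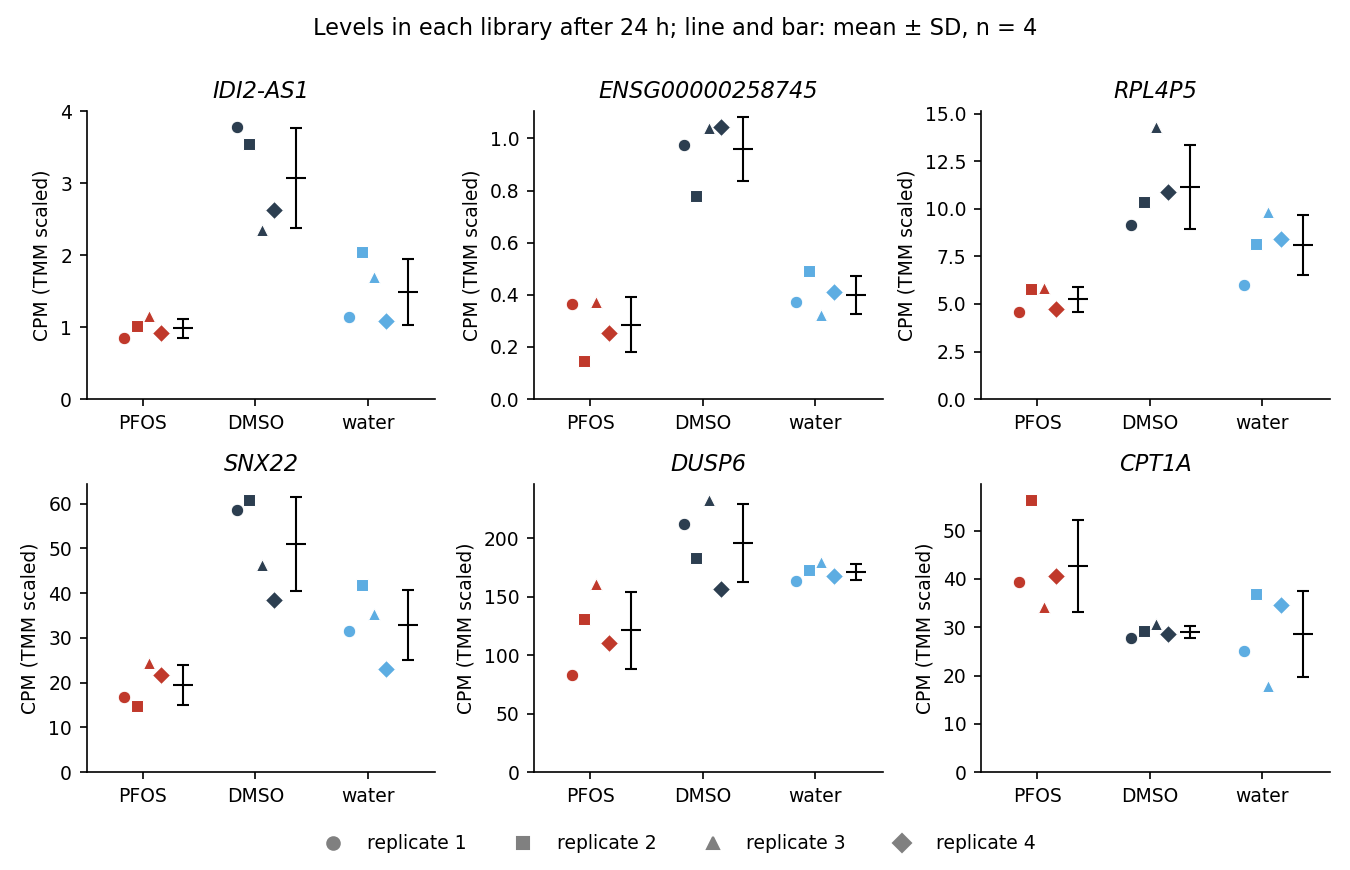
Level (CPM, TMM-scaled) of IDI2-AS1, ENSG00000258745, RPL4P5, SNX22, DUSP6 and CPT1A in each PFOS, DMSO and water library, 1 panel per gene, with points for libraries and the mean ± SD (n = 4) beside them. IDI2-AS1, ENSG00000258745, RPL4P5 and SNX22 lay lower in every PFOS library than in every DMSO library and CPT1A lay higher, while the groups of DUSP6 overlapped.

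Libraries of equal replicate number were taken as pairs, which the labels do not state. With the number as a block 84 genes were lower in PFOS and 0 higher (edgeR, 0.446% of genes tested called). All 84 were lower in 4 of 4 pairs, and 79 did not overlap between PFOS and DMSO, where 3.79% of all tested genes lay lower without overlap. Selection by a fit to the same libraries favours both traits, so they are descriptions only. The 84 comprised 38 antisense genes, 19 processed pseudogenes and 10 protein-coding genes among others, and most were scarce, with 62 below 5 CPM in DMSO. Their median log2 fold change was -1.37 against DMSO. Against water the same genes had a median of -0.55, and the water mean lay between those of PFOS and DMSO for 83 of them, nearer to PFOS for 65. The 84 were chosen for their difference between PFOS and DMSO. That choice by itself favours a water mean in between, so these values are a description only. In the fit against water 0 genes were called with or without the block by edgeR (386 and 668 had an unadjusted p under 0.05). Both comparisons use the same PFOS libraries. Leaving out pair 1, 2, 3 or 4 gave 3, 1, 10 and 5 calls in the blocked fit, all lower.

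The 10 protein-coding genes lower with the block included SNX22, DUSP6, CTSZ and CIITA. All 10 calls were lost when p-values were adjusted over protein-coding genes alone, where 0 were called with the block by edgeR (470 had an unadjusted p under 0.05). SNX22, a member of the sorting nexin family, stood at 16.8, 14.8, 24.5 and 21.7 CPM in PFOS and at 58.6, 60.8, 46.3 and 38.5 CPM in DMSO. Its groups did not overlap (log2 fold change -1.39 ± 0.29 SE, edgeR adjusted p = 0.0550, and 0.0265 with the block). DUSP6, a phosphatase that switches off ERK signalling, stood at 83.2, 131, 161 and 110 CPM in PFOS and at 212, 183, 233 and 157 CPM in DMSO. PFOS replicate 3 lay just above DMSO replicate 4, so the groups overlapped (log2 fold change -0.69 ± 0.17 SE, edgeR adjusted p = 0.106, and 0.0265 with the block). CTSZ, a lysosomal cysteine protease, averaged 7.17 ± 1.60 CPM in PFOS and 15.2 ± 2.97 CPM in DMSO (SD, n = 4 each, edgeR adjusted p = 0.0400 with the block). CIITA, the master regulator of MHC class II genes, averaged 0.558 ± 0.161 CPM in PFOS and 1.25 ± 0.244 CPM in DMSO (SD, n = 4 each, edgeR adjusted p = 0.0198 with the block). The remaining members were DLEC1, TMEM262, PPT2-EGFL8, C1orf167, SETSIP and the gap junction gene GJD3, each below 5 CPM in DMSO on average.

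Several of these genes face a far more abundant gene on the other strand. The tested gene with exons opposite those of SNX22, the peptidyl-prolyl isomerase PPIB, had 47.4 times its level per kilobase in DMSO, and the gene opposite CIITA, DEXI, 165 times. Among the 10 genes, 6 had such a partner at over 10 times their own level, with a lowest multiple of 44.9, while this held for 498 of 13414 tested protein-coding genes, or 3.71%. The other 4, CTSZ, DUSP6, GJD3 and SETSIP, had no tested coding gene over their exons on the other strand. Of the 139 protein-coding genes that lay lower in PFOS without overlap 49 had such a partner (35.3%), and of the 140 that lay higher 1 did (0.714%). BEST1, a chloride channel gene opposite the ferritin gene FTH1, is an example, with 53.7, 33.8, 54.6 and 49.2 CPM in PFOS and 130, 110, 69.3 and 75.6 CPM in DMSO. These comparisons by the opposite gene were chosen after the values were seen.

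Among antisense genes with exons over exons of the opposite coding gene, the median log2 fold change was lower the larger the overlap. Those with no coding gene opposite had a median log2 fold change of 0.07 (154 genes), and those over introns alone had 0.10 (188 genes). The median was -0.15 for 644 genes with up to 25% of their exonic bases over exons of the opposite gene, -0.45 for 315 genes with up to 50%, -0.54 for 146 with up to 75% and -0.85 for 252 with more. In the last class 236 of 252 lay below 0, and 94 lay lower in PFOS without overlap (37.3%, against 16.8% of all 1699 antisense genes). Against water its median was -0.30. ENSG00000269968, whose exons lie over those of the glycolytic gene GAPDH, averaged 17.4 ± 6.66 CPM in PFOS and 51.1 ± 11.5 CPM in DMSO (SD, n = 4 each), with 21.5 ± 4.92 CPM in water. PRADX, opposite the protease CTSD, was also lower with the block, at 2.04 ± 0.363 CPM in PFOS and 5.76 ± 1.14 CPM in DMSO (SD, n = 4 each, edgeR adjusted p = 0.00185 with the block).

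**Figure D2:**
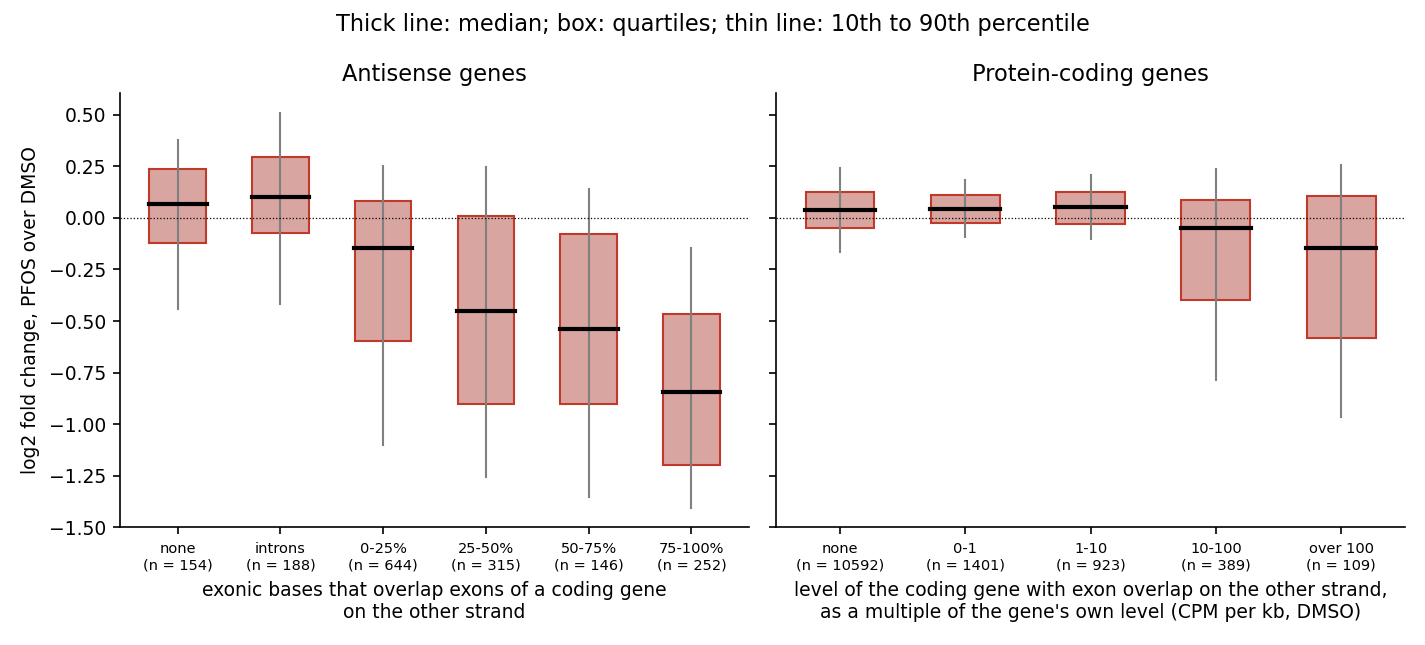
Log2 fold change, PFOS over DMSO, as quantiles over genes: antisense genes by the share of their exonic bases over exons of the opposite coding gene, and protein-coding genes by how many times the opposite-strand gene exceeded their own level per kilobase in DMSO. The antisense median ran from 0.07 with no coding gene opposite to -0.85 above 75%, and the coding median was -0.15 where the opposite gene exceeded the gene over 100-fold.

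The coding genes opposite these antisense genes differed less between PFOS and DMSO. For 36 of the 38 antisense genes lower with the block the opposite coding gene was tested, and the median log2 fold change of those was -0.01, from -0.69 to 0.56. The lowest was DUSP6, whose antisense partner ENSG00000274021 overlaps it by 83.1% and averaged 0.727 ± 0.0882 CPM in PFOS and 2.72 ± 0.571 CPM in DMSO (SD, n = 4 each). DUSP6 was the only one of the 36 that was itself called with the block. Summed over 248 pairs with more than 75% overlap, antisense reads per 1000 sense reads were 11.4, 11.1, 16.5 and 13.1 in PFOS, 24.0, 22.9, 17.8 and 17.1 in DMSO, and 13.3, 18.1, 16.4 and 10.8 in water. Group means were 20.5 in DMSO, the highest of the series, 14.7 in water and 13.0 in PFOS. They were 18.8 with TCDD, 15.5 with tributyltin chloride, 13.7 with cadmium chloride and 11.3 with bisphenol A. PFOS lay below DMSO without overlap (difference -7.43, exact permutation test, two-sided p = 0.0286, Benjamini-Hochberg adjusted 0.114 over 8 comparisons), and it overlapped water (exact permutation p = 0.514). An exact p of 0.0286 is the smallest possible with 4 against 4 libraries. This ratio was added after the data were seen. It covers the class with the lowest median in the same libraries, so its p-value is no separate support. The libraries were made with a kit that marks strand, per the labels, but no source used here states how strand was treated in counting, so the strand of these counts is uncertain.

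**Figure D3:**
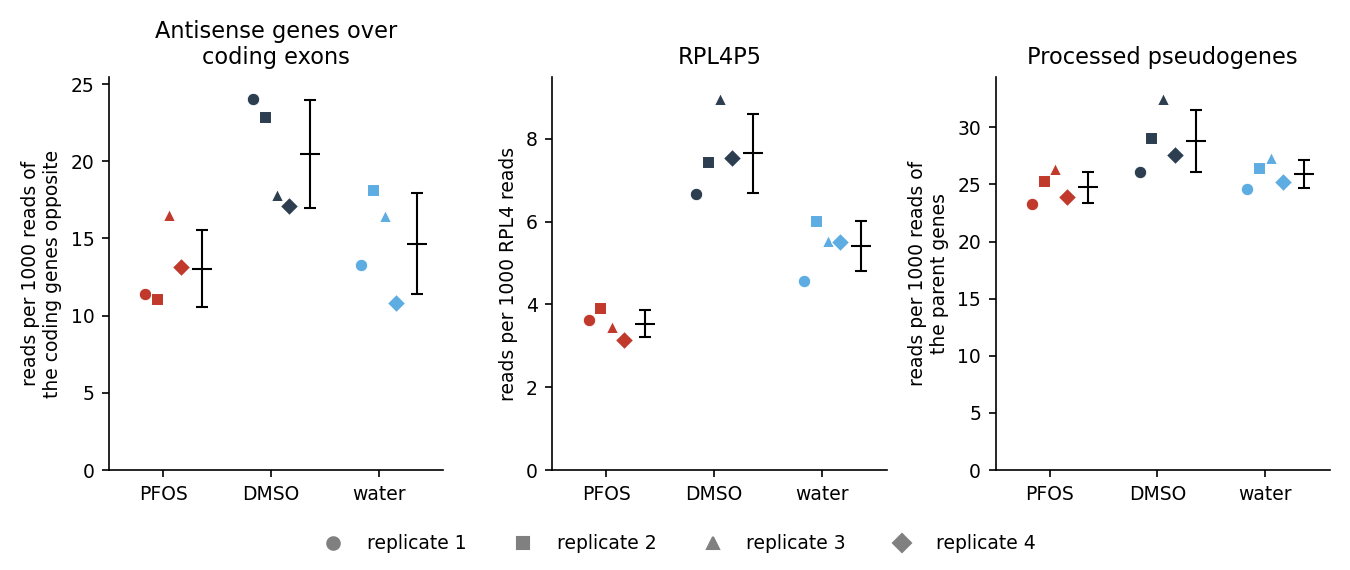
Antisense reads per 1000 sense reads (pairs with over 75% overlap), RPL4P5 reads per 1000 RPL4 reads and processed pseudogene reads per 1000 reads of their parent genes in each PFOS, DMSO and water library. The antisense ratio was 11.1 to 16.5 in PFOS and 17.1 to 24.0 in DMSO, and the RPL4P5 ratio was 3.13 to 3.91 in PFOS and 6.66 to 8.95 in DMSO.

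RPL4P5 was the only processed pseudogene called without the block. Among 1039 tested, the median log2 fold change was -0.27, with 216 lower and 12 higher at an unadjusted p under 0.05 (edgeR; 4.71% of all tested genes were lower at that threshold and 0.828% higher). Of 798 with a tested coding gene of the same root name, 656 lay below that parent in log2 fold change (82.2%), and the 469 parents had a median of 0.06. The 16 called with the block had parents between -0.06 and 0.22, 0 of them with an unadjusted p under 0.05. The value of 0.22 was that of EIF4A1, a scarce parent at 2.29 CPM in PFOS and 1.99 CPM in DMSO. Its pseudogene EIF4A1P10 had more, 15.4 CPM in PFOS and 22.6 CPM in DMSO. The next highest parent was KRT18 at 0.11. Reads could be divided between such copies and their parents in counting, which makes each single pseudogene value uncertain. Summed over pairs, pseudogene reads per 1000 parent reads were 24.7 ± 1.37 in PFOS and 28.8 ± 2.72 in DMSO (SD, n = 4 each, exact permutation p = 0.0571, Benjamini-Hochberg adjusted 0.114 over 8 comparisons).

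Protein-coding genes as a class stood close to 0, with a median log2 fold change of 0.04 over 13414 genes. With 4 against 4 libraries, the 95% interval of the log2 fold change lay within 1 on either side for 97.4% of the 9983 protein-coding genes at 5 CPM or more, and within 0.5 for 70.1%. Of these, 5 had a log2 fold change of at least 1 in size. The call under edgeR's adjusted p was met by 0 protein-coding genes (241 had an unadjusted p under 0.05), also when p-values were adjusted over protein-coding genes alone, and DESeq2 called 127 genes of any type (0.674%), 126 lower (0.668%) and 1 higher (0.00531%).

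Targets of PPAR alpha and enzymes of fatty acid oxidation were examined because PFOS is a known activator of that receptor. Of 32 genes, 29 were tested and 0 were called, with a median log2 fold change of 0.08 against 0.04 for protein-coding genes and 20 of 29 above 0. CPT1A, an enzyme needed for fatty acids to enter mitochondria and the rate-limiting step of their oxidation, stood at 39.4, 56.3, 34.3 and 40.6 CPM in PFOS and at 27.8, 29.3, 30.7 and 28.5 CPM in DMSO. All PFOS libraries lay above all DMSO libraries, and water averaged 28.6 ± 8.86 CPM. Its log2 fold change was 0.55 ± 0.17 (SE), with an edgeR adjusted p of 0.234, and 0.120 with the block. ACADVL, the first enzyme of very-long-chain fatty acid oxidation in mitochondria, stood at 249, 246, 287 and 319 CPM in PFOS and at 217, 188, 212 and 237 CPM in DMSO. These groups did not overlap (log2 fold change 0.37 ± 0.14 SE, edgeR adjusted p = 0.526, and 0.259 with the block). CREB3L3, a hepatic transcription factor of fasting, averaged 40.0 ± 12.5 CPM in PFOS and 24.9 ± 11.0 CPM in DMSO and overlapped (SD, n = 4 each). The lipid droplet protein PLIN2 averaged 581 ± 206 CPM in PFOS and 435 ± 64.8 CPM in DMSO (SD, n = 4 each), with overlap.

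**Figure D4:**
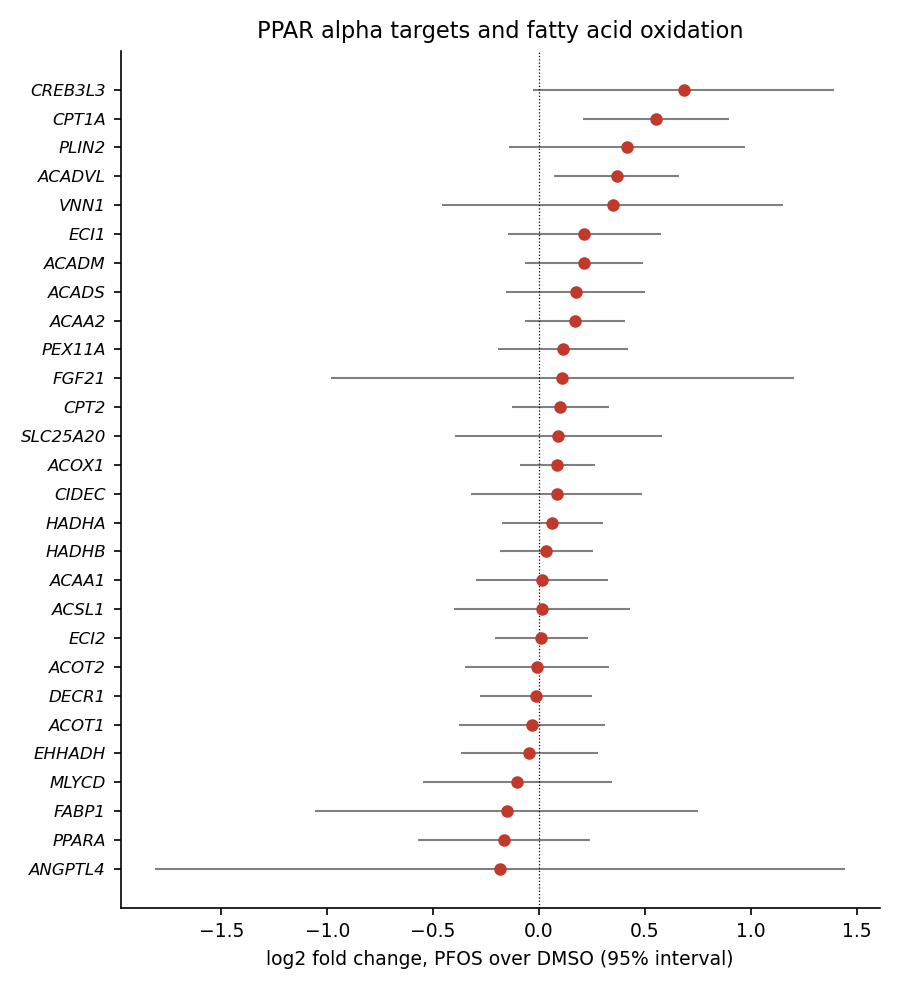
Log2 fold change, PFOS over DMSO, with 95% intervals (edgeR) for 28 of the 29 tested members of the list of PPAR alpha targets and fatty acid oxidation, with 1 member below 0 not drawn. 20 lay above 0, and CPT1A, ACADVL and CREB3L3 were the members called higher in the 8-sample blocked fit.

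In a blocked fit to the 8 libraries alone, 335 of 17502 genes were called (edgeR, 1.91%), 301 lower (1.72%) and 34 higher (0.194%). That fit called 45 protein-coding genes lower and 31 higher, and 22 of the 45 but 0 of the 31 faced a gene at over 10 times their level on the other strand. Of the 34 higher genes 5 did not overlap between PFOS and DMSO, where 1.15% of all tested genes lay higher without overlap. All 34 were higher in 4 of 4 pairs, which selection by a paired fit favours. They included CPT1A (edgeR adjusted p = 0.0464), ACADVL (0.0482) and CREB3L3 (0.0127) of the fatty acid list, and the liver transcription factor CEBPA, at 157, 107, 86.5 and 129 CPM in PFOS and 86.7, 78.8, 71.5 and 97.8 CPM in DMSO. PFOS replicate 3 of CEBPA lay within the DMSO range. HAMP, the iron-regulating hormone, averaged 2.73 ± 1.16 CPM in PFOS and 1.34 ± 0.608 CPM in DMSO, and the vitamin D-degrading enzyme CYP24A1 7.47 ± 5.68 CPM in PFOS and 2.18 ± 1.38 CPM in DMSO (SD, n = 4 each), both overlapping. The count moved with single pairs, since leaving out pair 1, 2, 3 or 4 gave 5, 1, 59 and 0 genes higher. These higher genes were picked by that alternative fit after values were seen.

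Among protein-coding genes that did not overlap, with a mean of at least 5 CPM in PFOS or DMSO, KISS1R, the kisspeptin receptor, had 25.5, 29.3, 26.5 and 32.1 CPM in PFOS and 17.5, 18.9, 20.3 and 20.3 CPM in DMSO (log2 fold change 0.56 ± 0.19 SE). The cytochrome gene CYB5A averaged 114 ± 10.2 CPM in PFOS and 88.4 ± 8.13 CPM in DMSO, and the NF-kappaB-activating receptor TNFRSF11A 8.23 ± 0.650 CPM in PFOS and 6.23 ± 0.427 CPM in DMSO (SD, n = 4 each). In the other direction, TP53INP2, an autophagy regulator, averaged 65.7 ± 12.2 CPM in PFOS and 101 ± 16.3 CPM in DMSO, and the ligand BMP6 4.11 ± 1.41 CPM in PFOS and 7.43 ± 1.59 CPM in DMSO (SD, n = 4 each). None of these 5 was called over all 28 libraries (edgeR adjusted p = 0.197 to 0.666 without the block), but KISS1R, CYB5A and TP53INP2 were in the blocked fit to the 8 libraries (edgeR adjusted p = 0.0130, 0.0416 and 0.0113).

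In the other lists, 0 members were called by edgeR over all 28 libraries, with or without the block. In the blocked fit to the 8 libraries, the lists of lipoproteins, hepatocyte identity, cell cycle, and inflammation and acute phase had 1 member higher each, and hypoxia and glycolysis had 1 lower. Cell cycle genes were alike in direction, with 21 of 21 above 0 and a median log2 fold change of 0.26, and 0 with an unadjusted p under 0.05. Their summed level was 2821 CPM in PFOS and 2347 CPM in DMSO, and the groups overlapped. Cholesterol synthesis genes had 7 of 26 above 0 and a median of -0.07. CAR and PXR targets had 6 of 13 above 0 and a median of -0.02, with both CYP2B6 and CYP3A4 below 1 CPM in each of the 8 libraries. Aryl hydrocarbon receptor targets had 5 of 11 above 0, integrated stress and unfolded protein genes 7 of 18, and NRF2 antioxidant genes 11 of 16. Cytosolic ribosomal protein genes had 32 of 36 above 0 (median 0.06), and the imprinted gene network around PLAGL1, the subject of the series' title, 5 of 11 (median -0.06). Genes of bile acid synthesis and transport had 7 of 16 above 0, fatty acid and triglyceride synthesis 7 of 19, lipid droplets and lipolysis 9 of 13, fatty acid uptake and binding 6 of 11, lipoproteins 9 of 16 and LXR targets 6 of 10. Hepatocyte identity genes had 13 of 21 above 0, heat shock genes and metallothioneins 9 of 13, p53 targets 10 of 13, inflammation and acute phase genes 6 of 13, hypoxia and glycolysis genes 4 of 16, estrogen and steroid hormone genes 5 of 10, mitochondrial mRNAs 8 of 13 and biliary markers 2 of 5. Over all tested genes 56.3% lay above 0, and over protein-coding genes 62.2%.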

How the data were processed

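HepG2 mRNA was selected by poly(A) and sequenced as paired reads of 150 bases from directional libraries, per the labels. The values are integer read counts per gene as deposited by the authors, and the submitters' processing notes name GRCh38, fastp, STAR, HTSeq and DESeq2. Tool versions, annotation release and strand setting were not given in the sources used here. Of 63140 table lines the last was dropped, as no line break ends it and its values may be incomplete, leaving 63139 genes. Of these, 42291 had an entry in the table of gene names and 58126 in GENCODE 29, the source of gene types, exon overlap and coordinates, which may differ from the annotation counted. There were 0 columns of other series.

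Genes were filtered with filterByExpr of edgeR 4.0.16 (minimum count 10) in R 4.3.3, which left 18849 genes with 99.96% of counts. The quasi-likelihood test with TMM scaling was fitted to all 28 libraries in 7 groups (21 residual degrees of freedom), and the threshold for a call was a Benjamini-Hochberg adjusted p of 0.05. The SE is the size of the log2 fold change divided by the square root of F. DESeq2 1.42.0, other scalings, filters, sample sets, vehicles and left-out libraries were alternatives. Single ratios were compared by exact permutation with scipy 1.17.1, and the fits were tested on simulated data. Libraries of a group differed by more than counting error (chi-square per gene 27.3 to 159).

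Deviations from the group mean correlated at 0.425 to 0.593 for PFOS and DMSO libraries of equal number, against -0.54 to 0.471 for other numbers. Every pair of equal number was above the minimum of 0.1, so the number was used as a block. Some unequal pairs also passed that minimum. PFOS replicate 2 correlated at 0.471 with DMSO replicate 3 and at 0.426 with DMSO replicate 2. The rule therefore does not show that equal numbers share an experiment. The labels do not state what the number marks. The block lowered the common biological coefficient of variation to 16.9%, against 22.0% without it.

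Named genes were those called, the protein-coding genes called with the block and the 12 others with the smallest p there, up to 8 protein-coding genes in each direction that did not overlap at 5 CPM or more with an unadjusted p under 0.05, the gene with the smallest p of each of 24 lists, a panel of lipid and receptor genes, and opposite-strand partners. Not every one is described, and some are not reported here. ENSG00000269968 and the comparisons by opposite-strand gene were picked after their values were seen. The comparison, the lists and the tests were chosen with earlier results of these data known.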

Additional observations from a re-analysis of the deposited data

Results flagged for a closer look

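Of 78 groups of 4 libraries examined for the genes described, 1 held a library far from the other 3, where chance gives about 1 in 20 groups. PFOS replicate 3 had 2.58 CPM of PRADX, an antisense gene, against 1.84 to 1.88 CPM in the other PFOS libraries.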

How the results depend on the processing

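The count of genes called, 3, became 84 with the replicate block, 335 with the block in the 8 libraries alone, 127 with DESeq2, 246 with the block in DESeq2, 23 with upper-quartile factors and 78 with no filter on low counts. It was 0 with water in place of DMSO (with or without the block), with the mean of both vehicles and for protein-coding genes only (with or without the block). Without 1 library it ran from 0 to 2 by edgeR. With pair 1, 2, 3 or 4 left out it was 3, 1, 10 and 5 in the blocked fit and 30, 11, 496 and 3 in the blocked fit to 8 libraries. RLE factors and a minimum of 1 CPM gave the same 3 genes, library size alone gave 2 of them (ENSG00000258745 at an edgeR adjusted p of 0.0532), and the 8 libraries without the block gave 3 genes and shared 0. The cause of these differences was not tested. The settings for protein-coding genes only, the pairs left out of the fit to 8 libraries and the antisense reads per 1000 sense reads were added after seeing the data. The antisense share of reads, which differed by -0.0603 percentage points between PFOS and DMSO, ran from -0.0735 to -0.0524 with 1 library left out, and 3 against 4 libraries cannot go below an exact p of 0.0571. With the replicate block as a sign-flip test it was -0.0603 (exact p = 0.125, the smallest possible), and with water in place of DMSO it was -0.0152 (exact p = 0.543). Antisense reads per 1000 sense reads, -7.43, ran from -8.60 to -6.25 without 1 library, had an exact p of 0.125 with the block, and were -1.63 against water. Genes near 0 changed sign. The log2 fold change of PYGL (0.02) was -0.0173 with upper-quartile factors, -0.00226 with no filter, -0.0738 to 0.117 without single libraries, and -0.0539 and -0.0736 with pair 2 left out of the blocked fits. That of RPL4 (0.04) was -0.00613 and -0.00545 against water without and with the block, -0.0333 to 0.102 without single libraries, and -0.00617 and -0.00597 with pair 2 and pair 3 left out of the blocked fit to 8 libraries. That of CYP1A1 (-0.13) ran from -0.834 to 0.484 without single libraries. Genes under 1 CPM rest on few counts.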
